A study of Rattus norvegicus with 22 samples.

Results

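The non-receptor tyrosine kinases are the cytoplasmic enzymes that phosphorylate tyrosine without being cell-surface receptors themselves. A list of 30 of their genes was matched to the array by gene name, and 28 had at least 1 probe, 35 probes in all of the 30367 on the array. No probe carried the name Tyk2 or Fer. The array's Fert2, which RefSeq names Fer, was not taken as a member by name. Of the 28 genes, 26 had a probe that stood well above background on at least 4 of the 22 arrays and entered the tests. Ptk6, a kinase of epithelial cells, was above background on 0 arrays, and Srms, its neighbour in the genome, on 1. On the probe used, 19 of the 26 were above background on all 22 arrays.

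The tissue was engineered cardiac tissue, a cylinder of matrix and cells from the ventricles of Sprague Dawley rat embryos at gestational day 14.5, cultured for 7 days. The 7 control samples were neither stretched nor given the inhibitor. The 7 stretch samples received cyclic stretch along 1 axis, at 0.5 Hz and 5% elongation, for 48 h from culture day 5. The 4 BIRB796 samples received 10 µM BIRB796, a p38 MAP kinase inhibitor, for the same 48 h, and the 4 combined samples received stretch and BIRB796 together. The series is titled as an inhibition of tyrosine kinase, while the labels name p38 MAPK, a serine/threonine kinase, as the target. The labels call the samples biological replicates and do not say how many litters or cultures stand behind them. The 12 cardiomyocyte markers, such as Tnnt2 and Myh6, were all measured, and their mean log2 signal was 4.91 to 5.24 above the array's 75th percentile in the 4 controls of the third session.

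The families differ in how they are switched on. SRC-family kinases are anchored to the membrane and held closed by CSK, FAK (Ptk2) is recruited by integrins at focal adhesions, JAK kinases sit on cytokine receptors, and ABL kinases act on actin and in the nucleus. SYK, ZAP70, the TEC kinases and the myeloid SRC members Fgr and Lyn relay signals from immune receptors, so several members are known mainly from leukocytes. In the heart, FAK and SRC are studied as early responders to mechanical load. The arrays measured messenger RNA and not kinase activity.

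The arrays were scanned in 3 sessions that overlap only partly with the groups. Session 1 held controls 1 to 3 and stretch 1 to 3, session 2 held stretch 4 to 7, and session 3 held controls 4 to 7 with every BIRB796 and combined sample. Session 1 was the brightest: its arrays had a 75th percentile of signal of 2935 to 4779, with 86.1% to 93.0% of spots well above background. Session 2 ran from 846 to 2455 (71.6% to 78.5% of spots), and session 3 from 2089 to 3613 (77.4% to 84.4%). Stretch replicates 4 and 5 differed by less than repeated spots of an array did (ratio 0.68) and were counted as 1 sample, which left 21. Values below are log2 signals relative to the array's own 75th percentile, in which a difference of 1 is 2-fold. They are comparable between arrays for 1 probe and not between probes. The session mattered for several members: between controls of session 1 and of session 3, Bmx differed by 3.07, Blk by 2.61, Zap70 by 2.58, Abl2 by 2.41 and Lck by 2.20, each higher in session 1. Over all genes 38.4% differed by more than 1 between these controls, against 6 of 26 members. Comparisons are therefore given within a session wherever a session held both groups.

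**Figure D1:**
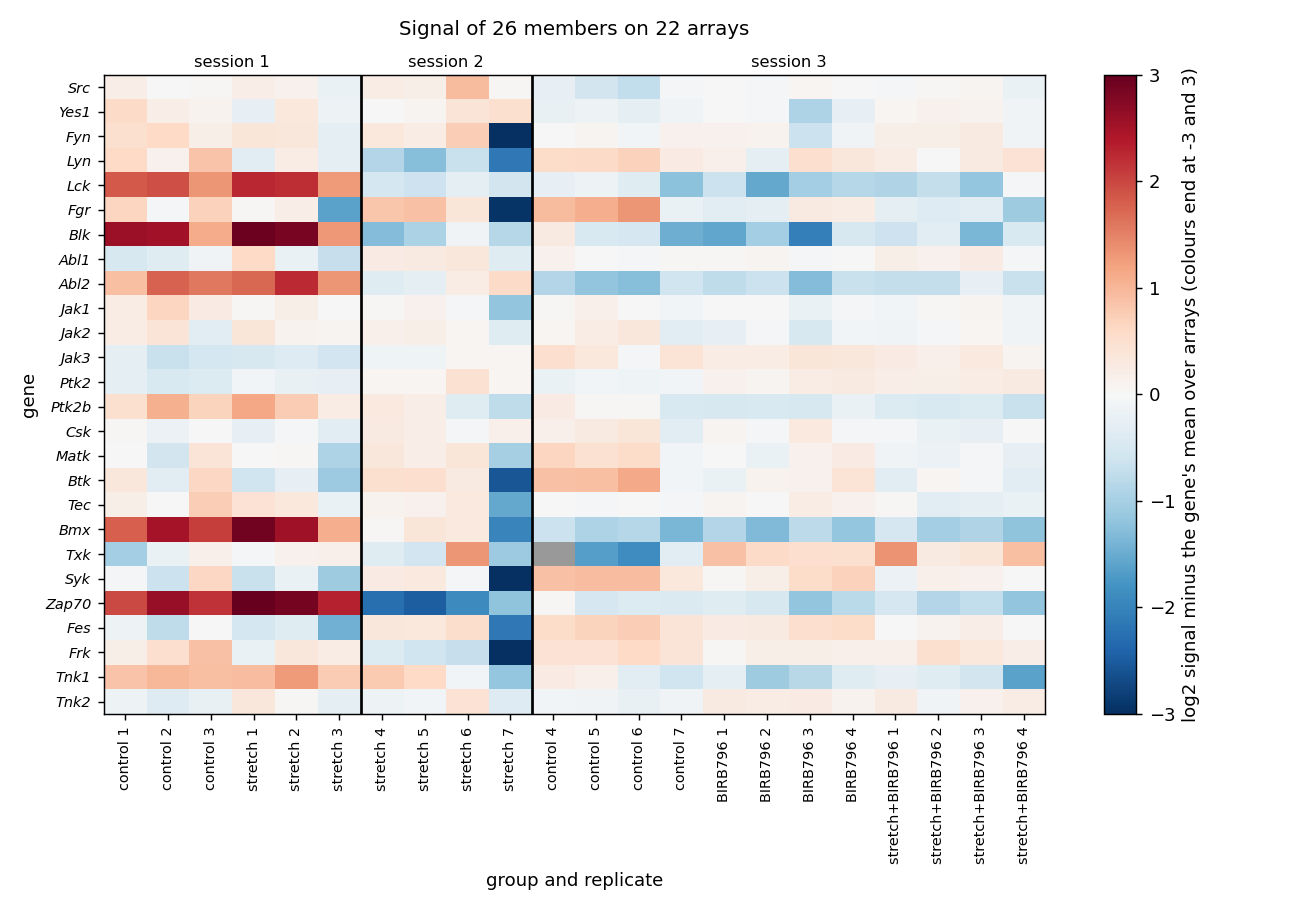
Log2 signal of the 26 tested members (vertical axis) on the 22 arrays (horizontal axis), each minus the gene's mean over arrays; red is above and blue below that mean, and grey marks a value left out. Bmx, Blk, Zap70, Abl2 and Lck are high throughout session 1, and stretch 7 is the lowest array for Fgr, Syk, Btk, Fes, Fyn and Frk.

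For the 6 members on which the comparisons turn, the opening 30 of the 60 bases of the probe used are shown. Coordinates are those of the scanner files on rn4. The exon or untranslated region each probe lies in was not analysed here. The Fgr probe is listed on the minus strand, while the GRCr8 promoter of Fgr, shown further below, is on the plus strand. Whether this probe reads the Fgr transcript was not tested.
Ptk2 (chr7:110933367-110933426, minus strand): ccagttgttacaccatgcattctgttaggt
Txk (chr14:37922991-37923050, plus strand): catagctttggaaacctatgtgaacattct
Fgr (chr5:152119800-152119859, minus strand): taaatggatgctcagagttcatctctcgta
Btk (chrX:122002453-122003355, minus strand): tccaccagaagtgctcatgtatagcaaatt
Syk (chr17:18441114-18441173, minus strand): ggagggtttagattctgaatgcaccataaa
Fes (chr1:136199850-136200173, minus strand): cttatcccaacctcaccaatcagcagacac
The Btk and Fes probes cover 903 and 324 bases of the genome with 60 bases of sequence, so both are split over more than 1 genomic block.

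Across all 21 samples, with the session as a term in the model, no member passed the test in any comparison. In that fit (limma, Benjamini-Hochberg over 23476 genes, threshold 0.05) stretch against control called 0 genes (0%), BIRB796 against control 0 (0%), combined against BIRB796 0 (0%), combined against stretch 0 (0%) and the interaction of stretch and inhibitor 0 (0%). Combined against control called 18 genes (0.0767%), none of them members. At an unadjusted p below 0.05 the same comparisons held 712, 1457, 440, 528, 322 and 2196 genes, and 1, 3, 0, 2, 1 and 3 members. These members were Lyn for stretch, Src, Ptk2 and Txk for BIRB796, Txk and Zap70 for combined against stretch, Yes1 for the interaction, and Fgr, Ptk2 and Txk for combined against control. A fit with array weights and a mean-variance trend called far more: 12 members for BIRB796 against control among 4581 genes (19.5%), and 13 for combined against control among 6963 genes (29.7%). It called 1 member each for combined against BIRB796 (Tec, among 423 genes, 1.80%) and combined against stretch (Zap70, among 220 genes, 0.937%). For stretch and the interaction it called 4 and 21 genes (0.0170% and 0.0895%) and no member. Without the session term stretch against control called Lyn among 267 genes (1.14%), and with the array set in its place Abl2 and Lyn among 1840 (7.84%).

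Within session 3, where controls, BIRB796 and combined samples were scanned together with 4 arrays each, Ptk2 and Txk were higher and Fgr, Syk, Btk and Fes lower than in controls. Ptk2 and Txk passed the test for BIRB796 alone, when 418 genes (1.78%) were called, 0.733% of genes higher and 1.05% lower. All 6 passed it for the combined samples, when 1780 genes (7.58%) were called, 3.28% of genes higher and 4.30% lower. The members' median difference was -0.18 for BIRB796 and -0.17 for the combined samples, beside -0.02 and 0.04 over all genes. Session 2 held stretch arrays only, so the stretch difference rests on session 1. Control and stretch arrays of the same number shared a slide there, and the SEs given for session 1 leave this pairing out. With the slide as a fixed block, session 1 called 0 of 23476 genes and 0 members (smallest limma adjusted p of a member 0.973). At an unadjusted p below 0.05 that fit held 995 genes and 0 members. No member passed in combined against BIRB796, with 19 genes called (0.0809%). The session's own fit estimates the spread from 12 arrays, and its differences equal those of the fit over all samples. Within the session, groups and slides were partly tied. BIRB796 replicates 2 to 4 sat on a slide without a control, and controls 5 and 6 on a slide without a treated array. Only BIRB796 replicate 1 shared a slide with a control, control 4, so most of the BIRB796 difference lies between slides.

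**Figure D2:**
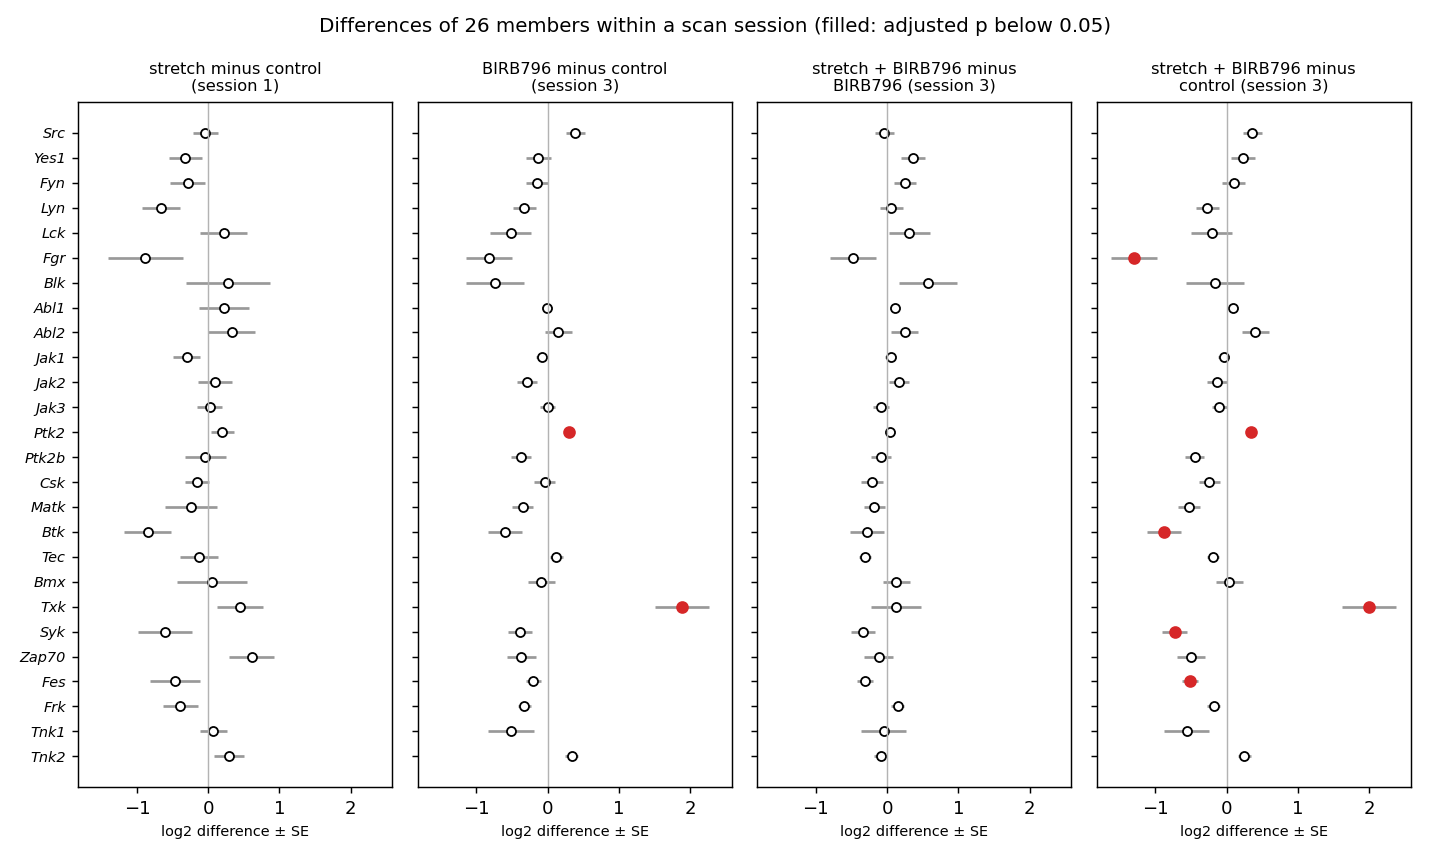
Log2 difference ± SE (horizontal axis) of the 26 members (vertical axis) in 4 comparisons, each fitted within the scan session named above its panel; filled points passed at an adjusted p below 0.05. The filled points are Ptk2 and Txk in the BIRB796 panel and Ptk2, Txk, Fgr, Btk, Syk and Fes in the combined against control panel.

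Ptk2, the focal adhesion kinase that couples integrins to SRC, was higher in both inhibitor groups. Its 4 controls in session 3 read 0.04, 0.16, 0.12 and 0.18. The BIRB796 arrays read 0.38, 0.33, 0.48 and 0.52, and the combined arrays 0.44, 0.42, 0.48 and 0.52. Every treated array stood above every control, as 4.91% of all genes did for BIRB796 and 8.94% for the combined samples. The differences were 0.30 ± 0.07 (SE), or 1.23-fold, for BIRB796 (limma adjusted p = 0.0466) and 0.34 ± 0.07, or 1.27-fold, for the combined samples (limma adjusted p = 0.0188). With the slide as a random block, BIRB796 alone no longer passed (limma adjusted p = 0.0891), while the combined samples did (limma adjusted p = 0.0178). In session 1, stretch arrays 1 to 3 read 0.17, 0.03 and 0.00 against controls at -0.04, -0.20 and -0.16, again without overlap, as 4.68% of all genes did. That difference was 0.20 ± 0.16 (limma adjusted p = 1) in the fit without slides. Slide by slide, stretch 1, 2 and 3 differed from their controls by 0.21, 0.22 and 0.16. Ptk2b, the calcium-responsive PYK2 and the other kinase of the FAK family, went the opposite way in session 3, at -0.37 ± 0.14 for BIRB796 and -0.45 ± 0.14 for the combined samples, and did not pass (limma adjusted p = 0.188 and 0.0767). Its other probe differed by -0.64 ± 0.18 and -0.66 ± 0.18, and when each probe was tested apart it passed for the combined samples, at the threshold (limma adjusted p = 0.0913 and 0.050).

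**Figure D3:**
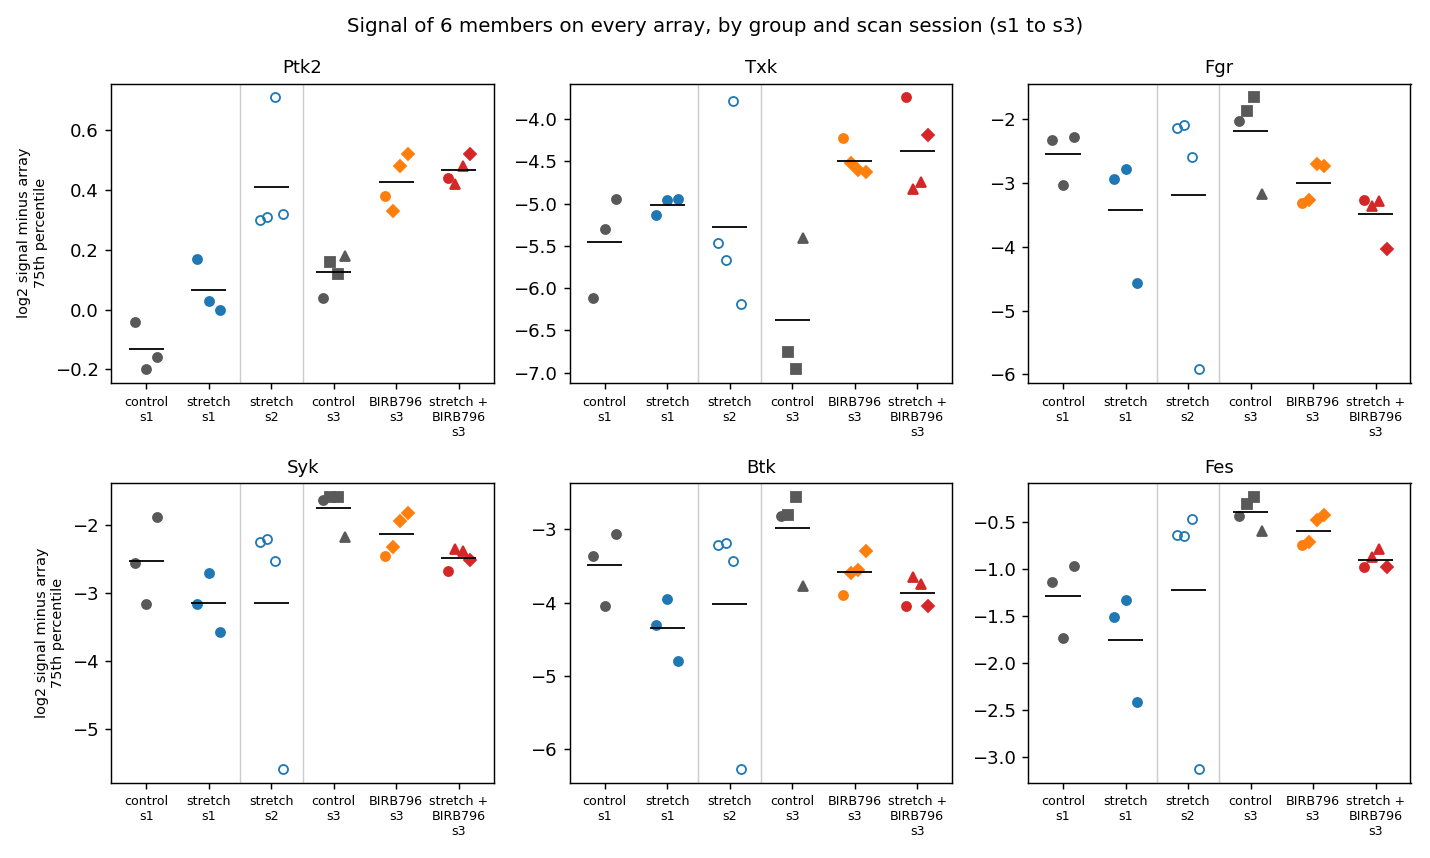
Log2 signal minus the array's 75th percentile (vertical axis) for 6 genes on each array, by group and scan session (s1 to s3, horizontal axis); the line is the mean of the arrays drawn, open circles are session 2, and in session 3 the circle, square, triangle and diamond are 4 different slides. The control drawn as a triangle is replicate 7, which lies among the treated arrays for Fgr and Btk, and Txk has no value for control 4.

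The SRC family divides into broadly expressed and leukocyte members. Src itself, the founding kinase of the family, read -2.32, -2.61, -2.80 and -2.14 in the session 3 controls and -2.08, -2.13, -2.01 and -2.09 with BIRB796. The BIRB796 arrays all lay above the controls, and the difference was 0.39 ± 0.13 (limma adjusted p = 0.135). The combined difference was 0.36 ± 0.13 (limma adjusted p = 0.117). Yes1 and Fyn, the other broadly expressed members, differed from controls by -0.13 ± 0.17 and -0.15 ± 0.16 for BIRB796 and by 0.23 ± 0.17 and 0.10 ± 0.16 for the combined samples. Yes1 had the smallest p of the members in the interaction, 0.68 ± 0.29 in the fit over all samples (limma adjusted p = 1).

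Fgr, a SRC kinase of granulocytes and macrophages, had the largest decrease among the members that passed. The strand listed for its probe differs from that of its promoter, as stated above. Controls 4, 5 and 6 read -2.03, -1.88 and -1.66, and control 7 read -3.17. The BIRB796 arrays read -3.31, -3.27, -2.70 and -2.74, and the combined arrays -3.27, -3.36, -3.28 and -4.03. The combined arrays were all below all 4 controls, as 7.86% of genes were, while the BIRB796 arrays enclosed control 7. The difference was -1.30 ± 0.32, or 2.46-fold lower, for the combined samples (limma adjusted p = 0.0364) and -0.82 ± 0.32 for BIRB796 (limma adjusted p = 0.195). In session 1 Fgr differed by -0.88 ± 0.52 between stretch and control, with stretch 3 at -4.57 and the other 5 arrays between -3.03 and -2.29.

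Lyn, which signals from Fc and B-cell receptors, had the smallest p for stretch in the fit over all samples. The session 1 controls read -6.21, -6.68 and -5.95 and the stretch arrays -7.12, -6.59 and -7.10, so stretch 2 lay among the controls. The difference was -0.66 ± 0.27 within the session (limma adjusted p = 1). In session 3 it was -0.33 ± 0.16 and -0.27 ± 0.16 for BIRB796 and the combined samples. Lck, the T-cell member, differed by -0.52 ± 0.29 and -0.21 ± 0.29. Blk, the B-cell member, was well above background on 5 of the 6 arrays of session 1. The counts were 0 of 4 in session 2 and 1 of 12 in session 3. In session 1 stretch differed from control by 0.28 ± 0.59 for Blk. Its session 3 differences are plotted and counted with the other members, but they are near background and are not read here. The same limit holds for its difference of 2.61 between the controls of sessions 1 and 3. The inhibitory kinases of the family were Csk, at -0.04 ± 0.15 and -0.24 ± 0.15, and its blood-cell relative Matk, at -0.35 ± 0.15 and -0.53 ± 0.15. Matk missed the threshold for the combined samples (limma adjusted p = 0.0594). Frk, a SRC-like kinase of epithelia, read -5.13, -4.98, -4.98 and -5.01 with BIRB796, below all 4 controls (-4.71, -4.73, -4.56 and -4.77). The share of genes with BIRB796 below every control was 6.93%. The Frk difference was -0.33 ± 0.09 (limma adjusted p = 0.0741).

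The TEC kinases, most of which carry a lipid-binding domain, act behind immune receptors. Btk, the kinase of B cells and myeloid cells, read -2.82, -2.80, -2.56 and -3.77 in the session 3 controls. It read -3.89, -3.60, -3.56 and -3.29 with BIRB796 and -4.04, -3.65, -3.75 and -4.04 in the combined samples. Control 7 again lay among the treated arrays. The combined difference was -0.88 ± 0.24, or 1.84-fold lower (limma adjusted p = 0.0487), and the BIRB796 difference was -0.60 ± 0.24 (limma adjusted p = 0.204). Btk had the smallest p of the members in session 1: controls read -3.37, -4.04 and -3.07 and stretch arrays -4.30, -3.95 and -4.79, a difference of -0.85 ± 0.33 (limma adjusted p = 1).

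Txk, a T-cell TEC kinase, had the largest increase, but its call depended on 1 spot. The values for controls 5, 6 and 7 were -6.75, -6.96 and -5.41, against -4.22, -4.52, -4.60 and -4.63 with BIRB796 and -3.74, -4.83, -4.74 and -4.19 in the combined samples. Control 4 had a spot that the scanner software marked as uneven, and it was left out. The differences over the 3 remaining controls were 1.88 ± 0.38, or 3.69-fold (limma adjusted p = 0.0418), and 2.00 ± 0.38, or 4.00-fold (limma adjusted p = 0.0201). With normexp background correction and quantile scaling Txk still passed, but its differences were 0.87 ± 0.16 and 0.88 ± 0.16 (limma adjusted p = 0.0161 and 0.00698). With the marked spot kept, control 4 read -4.30, as high as the treated arrays, and the differences were 1.37 ± 0.51 and 1.48 ± 0.51 (limma adjusted p = 0.180 and 0.101). The authors' deposited table keeps that spot, with control 4 at 1.08 and controls 5 to 7 at -1.35, -1.56 and -0.01 on its own log2 scale. In session 1 Txk differed by 0.45 ± 0.32 between stretch and control.

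Tec, the founding member of the TEC family and Txk's neighbour in the genome, had the smallest p of the members in combined against BIRB796. The BIRB796 arrays read 0.23, 0.16, 0.37 and 0.29 and the combined arrays 0.19, -0.19, -0.14 and -0.05, which overlapped by 1 array. The difference was -0.31 ± 0.09 (limma adjusted p = 0.318). Bmx, the TEC kinase of endothelium and bone marrow, differed from controls by -0.09 ± 0.19 for BIRB796 and 0.04 ± 0.19 for the combined samples.

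Syk, which binds the phosphorylated tails of Fc and related receptors, was lower in the combined samples. Controls 4, 5 and 6 read -1.63, -1.59 and -1.59, and control 7 read -2.18. The BIRB796 arrays read -2.46, -2.32, -1.95 and -1.82, and the combined arrays -2.68, -2.35, -2.38 and -2.52, all below the controls. The combined difference was -0.73 ± 0.17, or 1.66-fold lower (limma adjusted p = 0.0336), and the BIRB796 difference was -0.39 ± 0.17 (limma adjusted p = 0.258). The other 2 Syk probes differed by -0.75 ± 0.23 and -0.58 ± 0.42 in the combined samples and did not pass (limma adjusted p = 0.0706 and 0.443). In session 1 stretch differed from control by -0.61 ± 0.38, and on the slides of stretch 1, 2 and 3 by -0.61, 0.46 and -1.69. Zap70, the T-cell counterpart of Syk, differed by 0.61 ± 0.32 in session 1, with controls at -3.65, -3.01 and -3.46 and stretch arrays at -2.24, -2.75 and -3.30. In session 3 it was -0.37 ± 0.20 and -0.50 ± 0.20 for BIRB796 and the combined samples. Stretch arrays of session 2 read -8.09 to -6.82, so its stretch difference turned negative where the session was not in the model (-0.26 ± 0.88).

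Fes, a kinase of myeloid cells that binds membranes and microtubules, was the remaining member that passed. Controls in session 3 read -0.43, -0.30, -0.23 and -0.59, the BIRB796 arrays -0.74, -0.71, -0.48 and -0.42, and the combined arrays -0.98, -0.87, -0.78 and -0.98. The combined arrays were below all 4 controls and below all 4 BIRB796 arrays; 1.83% of genes had every combined array below every BIRB796 array. The differences were -0.51 ± 0.11 against control, or 1.43-fold lower (limma adjusted p = 0.0219), and -0.31 ± 0.11 against BIRB796 (limma adjusted p = 0.435). In session 1 the stretch difference was -0.47 ± 0.35, and on the slides of stretch 1, 2 and 3 it was -0.37, 0.40 and -1.44. Fert2, the array's name for the relative Fer, differed by 0.14 ± 0.10 for BIRB796 and 0.21 ± 0.10 for the combined samples on its brighter probe.

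On the probe used, no ABL, JAK or ACK kinase passed in the fit over all samples with the session term or in the fit of all arrays of a session. With array weights and a trend, Jak2, Tnk1 and Tnk2 were called for BIRB796 and Abl2 and Tnk1 for the combined samples. Abl1 differed by -0.01 ± 0.07 for BIRB796 and 0.09 ± 0.07 for the combined samples, and its other 2 probes by -0.01 ± 0.21 and 0.10 ± 0.12, and by 0.46 ± 0.21 and 0.23 ± 0.12. Abl2 differed by 0.15 ± 0.19 and 0.40 ± 0.19. The interferon and cytokine kinase Jak1 differed by -0.08 ± 0.08 and -0.04 ± 0.08, Jak2, which serves growth hormone and erythropoietin receptors, by -0.29 ± 0.14 and -0.13 ± 0.14, and Jak3, the partner of the common gamma chain, by 0.00 ± 0.11 and -0.10 ± 0.11. Stretch arrays 1 to 3 read 0.56, 0.69 and 0.52 for Jak1, below the controls at 0.75, 1.16 and 0.76, a difference of -0.30 ± 0.19 within session 1. Tnk2, the CDC42-bound ACK1, read 3.33, 3.29, 3.31 and 3.17 with BIRB796, above all 4 controls (2.99, 2.96, 2.83 and 2.96). Its difference was 0.34 ± 0.09 (limma adjusted p = 0.0766). The other 2 Tnk2 probes moved the same way, by 0.41 ± 0.10 and 0.59 ± 0.17 for BIRB796 and by 0.39 ± 0.10 and 0.68 ± 0.17 for the combined samples, and both passed for the combined samples when each probe was tested apart (limma adjusted p = 0.0370 and 0.0364). Tnk1 differed by -0.51 ± 0.32 and -0.56 ± 0.32.

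Of the 25 members with a value on every array of session 3, 3 had all BIRB796 arrays above all controls (Src, Ptk2 and Tnk2) and 1 had them below (Frk), beside 4.91% and 6.93% of all genes. For the combined samples 1 was above (Ptk2) and 3 below (Fgr, Syk and Fes), while the shares of all genes were 8.94% and 7.86%. No member had every combined array above every BIRB796 array, as 4.46% of genes did. For stretch in session 1 they were 1 above (Ptk2) and 1 below (Jak1) of 26, with 4.68% and 4.22% of all genes. The BIRB796 and combined comparisons share their 4 controls. Over the 21 samples, each centred on its session's mean, the members most like Syk were Btk (Pearson r = 0.97), Fes (0.97) and Fgr (0.93), and those most like Ptk2 were Tnk2 (0.79), Txk (0.75) and Src (0.71). Src was most like Txk (0.76). Jak2 was most like Ptk2b (0.63) and Jak1 (0.51) once Blk, which was above background on 6 arrays only, was set aside. These values include the differences between groups, and stretch 7, the dimmest array, is low for Syk (-5.59), Btk (-6.27), Fes (-3.13) and Fgr (-5.92) at once.

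Control 7 of session 3, on a slide shared with 2 combined arrays and no other control, lay nearest the treated arrays for Fgr, Btk, Syk and Fes. Without it the session 3 fit called 9 members for BIRB796 (Btk, Fgr, Frk, Jak2, Matk, Ptk2, Ptk2b, Src and Txk) and 10 for the combined samples (Btk, Csk, Fes, Fgr, Matk, Ptk2, Ptk2b, Src, Syk and Txk), among 2287 and 3814 genes (9.74% and 16.2%). For combined against BIRB796 it called 0 members and 30 genes (0.128%). Leaving out control 4, 5 or 6 instead left 0 members in both. For BIRB796, 0 members also remained without any 1 of the 4 BIRB796 arrays, and without combined replicate 2, 3 or 4. For the combined samples 1 remained without combined replicate 4 (Ptk2), 2 without combined replicate 1 (Ptk2 and Txk) and 3 without combined replicate 3 (Fes, Ptk2 and Txk). The share of all genes called is given only for the fit without control 7. For the others, a loss of calls among members cannot be told from a loss over all genes. With the slide as a random block, 0 members were called for BIRB796 (0.268% of genes), 0 for combined against BIRB796 (0.102%) and 4 for combined against control (Fes, Ptk2, Syk and Txk; 7.13%), where Fgr and Btk had adjusted p of 0.0572 and 0.0739 in limma. On the slide that held control 7, the mean of its 2 combined arrays differed from control 7 by -0.15 for Fgr, 0.07 for Btk, -0.18 for Syk, -0.23 for Fes and 0.27 for Ptk2. On the slide that held control 4, the combined array differed from it by -1.24, -1.21, -1.05, -0.55 and 0.40. Txk differed by 0.62 on the slide of control 7, beside 2.00 within session 3, and had no value for control 4.

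Markers of macrophages and leukocytes moved with the myeloid kinases. Of 18 listed genes 17 were tested; in the combined samples of session 3, 9 were called lower and 0 higher, with a median of -0.63 beside 0.04 for all genes. Adgre1, the F4/80 antigen, differed by -1.25 ± 0.23 (limma adjusted p = 0.0163) and Aif1, a macrophage actin-bundling protein, by -0.90 ± 0.17 (limma adjusted p = 0.0188). For BIRB796 0 were called and 16 of 17 were below 0, with a median of -0.37. For stretch in session 1 0 were called and 17 of 17 were below 0, with a median of -0.61 beside 0.05 for all genes. The slides did not all go this way. The list's mean was lower in stretch 1 and 3 than in the control on the same slide (0.11 against 0.81 and -0.51 against 1.22). It was higher in stretch 2 (0.46 against 0.04). The list's mean signal was 1.58, 1.58 and 1.72 in controls 4 to 6 and 0.90 in control 7, 0.83 to 1.23 with BIRB796 and 0.66 to 0.94 in the combined samples, so control 7 was low for this list too. Without control 7, 11 of 17 were called lower for BIRB796 and 14 for the combined samples, and with the slide as a random block 0 and 7. In the fit over all samples with the session term, 0 of the 17 were called in either comparison. Cd163 was above background on 0 arrays. The share of these cells was not measured, and fewer cells of a type and less RNA per cell cannot be told apart in bulk RNA; their part in the results for Fgr, Syk, Btk and Fes was not tested.

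**Figure D4:**
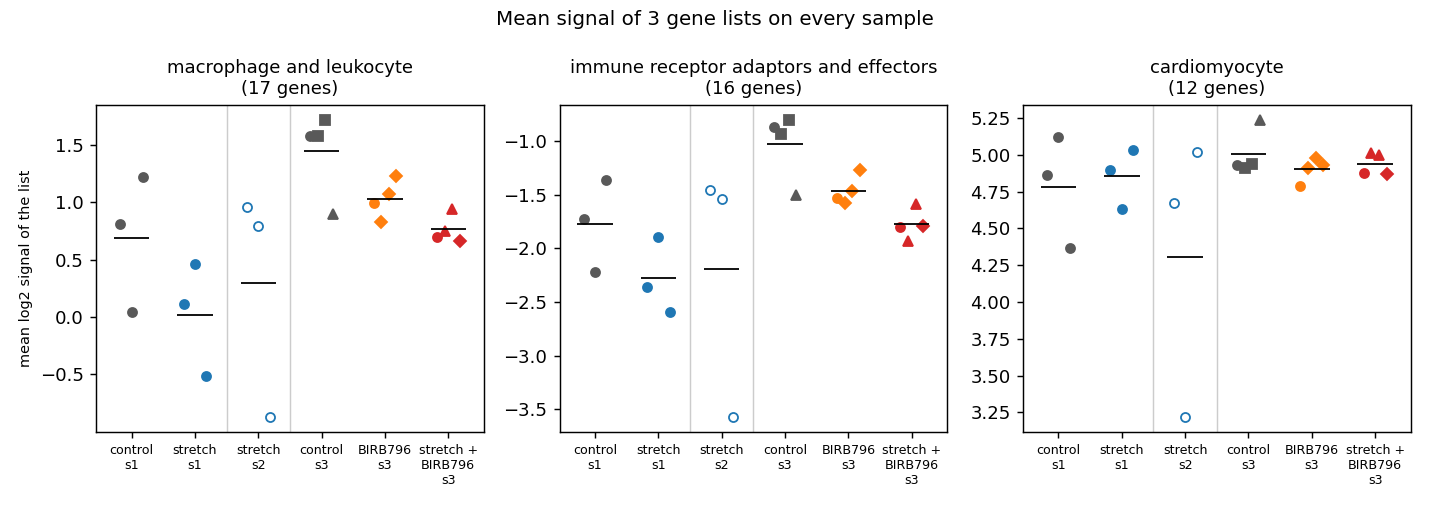
Mean log2 signal (vertical axis, relative to the array's 75th percentile) of 3 gene lists in each of the 21 samples, by group and scan session (s1 to s3, horizontal axis); lines are means and symbols are as in the plot of the 6 genes. Control 7, the triangle among the session 3 controls, lies at 0.90 in the macrophage list, where the other 3 controls lie at 1.58 to 1.72.

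Markers of other cell types were read in the same way. Of 10 endothelial markers, 5 were called lower in the combined samples, led by the junction protein Esam (-1.65 ± 0.24, limma adjusted p = 0.00926) and the secreted vascular protein Egfl7 (-0.50 ± 0.09, limma adjusted p = 0.0163), with a median of -0.83. Esam alone of the marker genes was also called for the combined samples in the fit over all samples with the session term. All 6 mesothelial and epicardial markers were below 0 for BIRB796 and for the combined samples, with medians of -1.20 and -1.01; 0 were called for BIRB796 and Msln, a mesothelial surface protein, was called lower for the combined samples (-1.66 ± 0.40, limma adjusted p = 0.0365). Of 6 epithelial markers, the keratins Krt19 and Krt8 were called lower for BIRB796 and Krt19 for the combined samples, with medians of -1.0 and -0.71. In the combined samples, 1 gene each was called lower among T and NK cell (Cd4) and B-cell markers (Cd79b). All 6 tested T and NK cell markers were below 0, with a median of -0.25. Of the 4 tested B-cell markers 3 were above 0 and 1 below, with a median of 0.13. Of 4 megakaryocyte markers, Pf4 was called lower in the combined samples and Gp1bb higher in both groups. The part of these cells in the members' results was not tested. None of the 12 cardiomyocyte or 8 fibroblast markers was called in session 3. With the slide as a random block, 2 cardiomyocyte markers were called lower in the combined samples, and without control 7, 1 was called higher, with 2 fibroblast markers higher and 1 lower. Among T and NK cell markers 6 of 8 were tested, and the defining Cd3e was above background on 1 array and Cd2 on 0. The B-cell marker Ms4a1 and the mast-cell marker Ms4a2 were above background on 0 arrays.

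Genes that work with the kinases were counted in 5 lists, beside 3.28% of all genes called higher and 4.30% lower in the combined samples of session 3. In the fit over all samples with the session term, 0 genes of these 5 lists were called for BIRB796 or the combined samples. Among 16 adaptors and effectors of immune receptors, 7 were called lower in the combined samples of session 3 and 0 higher, with a median of -0.77; Pik3ap1, which links B-cell and Toll receptors to PI3 kinase, differed by -0.81 ± 0.16 (limma adjusted p = 0.0193) and Lat, a membrane scaffold that ZAP70 phosphorylates, by -0.85 ± 0.17 (limma adjusted p = 0.0209). For BIRB796 0 were called and 15 of 16 were below 0. Without control 7, 11 were called lower for BIRB796 and 14 for the combined samples, and with the slide as a random block 0 and 5. Of 13 regulators of SRC and FAK, 3 were called lower: the blood-cell phosphatase Ptpn6, the phosphatase Ptprj and the adaptor Sla. With the slide as a random block 0 of the 13 were called. Of 22 adaptors and substrates, such as Pxn and Bcar1 of the focal adhesion, 2 were called lower, the adaptors Fyb1 and Dok3, and 0 higher. Of this list 15 were above 0 and 7 below, with a median of 0.17 beside 0.04 for all genes. Without control 7, 5 of the 22 were called higher and 4 lower, and with the slide as a random block 1 and 2. Of 21 cytokine receptor chains that use JAK kinases, 2 were called lower, Csf2ra and Csf3r, receptors for myeloid growth factors. Of 17 STAT and SOCS genes 0 were called; 11 were above 0 and 6 below. In session 1 stretch called 0 of all genes (633 at an unadjusted p below 0.05) and 0 members (2 at that p). In that session 0 genes of these lists were called, and the immune receptor list had a median of -0.61. Its mean was lower in stretch 1 and 3 than in the control on the same slide (-2.36 against -1.73 and -2.59 against -1.36). It was higher in stretch 2 (-1.89 against -2.22).

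The promoters of the listed members were read for GAGGAA, a purine-rich core that ETS factors such as PU.1 bind. The motif was chosen because of Spi1, the gene of PU.1, after its value was seen. Spi1 was among the macrophage genes called lower (-0.83 ± 0.18, limma adjusted p = 0.0263). RefSeq's table on GRCr8 gives 22 promoters for 20 of the 30 genes, each with 250 bases before the start and 50 after. On either strand (GAGGAA or TTCCTC) the letters were found in 7 of the 22, beside 27.6% of all 33469 promoters. In the 250 bases before the start alone they were found in 5 of the 22, beside 23.3%. The upstream 250 bases of Syk, which holds a match 62 bases before the start, and of Fgr, which holds none, are given with the match in capitals.
Syk (chr17:12813274-12813523, minus strand): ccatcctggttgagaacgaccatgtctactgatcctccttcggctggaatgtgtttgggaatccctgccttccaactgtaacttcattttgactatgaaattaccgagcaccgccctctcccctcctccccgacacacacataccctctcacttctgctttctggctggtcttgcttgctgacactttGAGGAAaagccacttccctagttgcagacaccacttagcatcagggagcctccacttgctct
Fgr (chr5:150473547-150473796, plus strand): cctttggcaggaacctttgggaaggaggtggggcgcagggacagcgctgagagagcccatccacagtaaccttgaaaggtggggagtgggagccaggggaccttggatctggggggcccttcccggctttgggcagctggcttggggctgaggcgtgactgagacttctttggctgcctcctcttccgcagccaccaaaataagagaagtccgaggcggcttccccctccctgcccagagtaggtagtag
Fes and Btk had matches just after the start, at bases 36 and 10, and Txk 190 bases before it, shown here in 30 bases each.
Fes (chr1:143756132-143756161, minus strand): actgaaaccacggagGAGGAAgcaggaatc
Btk (chrX:102055117-102055146, minus strand): ctcagactgtccTTCCTCtctggactgtaa
Txk (chr14:35817746-35817775, plus strand): agatgtaggtttGAGGAAgtgcctaacacc
The promoters of Abl1 and Frk, which were not called in session 3, and of Fer had matches too. Binding was not measured, and a part of PU.1 in the members' results was not tested.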

How the data were processed

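Members and gene lists were chosen with earlier results of these data known. Each sample's RNA, carrying the Cy3 dye, was read on an Agilent array of 1 colour; per the file headers the deposited spot intensities were extracted with Feature Extraction 10.7.1.1, 10.7.3.1 and 11.0.1.1 in sessions 1, 2 and 3, background-subtracted and not scaled between arrays. Control spots and spots marked as outliers were left out, log2 signals were set to each array's 75th percentile, and spots of a probe were averaged. A probe entered the tests if 4 or more arrays showed it well above background, and the probe with the highest mean stood for its gene. Array gene names other than members' were updated through RefSeq accessions.

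The test was limma 3.58.1 in R 4.3.3, two-sided, over all 4 groups with scan session as a term (21 samples, 15 residual degrees of freedom), with Benjamini-Hochberg adjustment over 23476 genes. Within-session fits are alternatives. The fit was tested on simulated data: of 100 genes changed by 1 and 100 changed by 2 on the log2 scale it recovered 35 and 75 for stretch and 41 and 77 for BIRB796; session 1 alone recovered 1 and 39, session 3 alone 29 and 74. The simulation gave each gene 1 spread, pooled over groups and sessions, and no slide effect. In the data the spread could differ: the BIRB796 difference of Ptk2 had an SE of 0.11 over all samples and 0.07 in session 3. The recovered counts therefore do not rank the fits for these data. The number of arrays limits the precision.

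The authors' deposited table holds log2 values of 27873 probes, centred per probe by an unstated rule; its 22 columns each correlated best with their own array (slope 1.000, medians -0.11 to 0.40). For members called within a session, values are given on each array of the groups compared in that session. The same was done for the 2 with the smallest p where fewer than 2 were called. Their values on the other arrays are given in part and drawn in the figures. From each list the 2 called genes with the smallest p may be named. Src, Frk, Tnk2 and Jak1 are given array by array because their groups did not overlap, chosen after their values were seen. Same-numbered control and stretch samples of session 1 shared slides (r = 0.51, 0.15 and 0.57); over all groups the numbers did not pair samples. The alternative background correction used median signals.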

Additional observations from a re-analysis of the deposited data

Results flagged for a closer look

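In 10 of 129 groups of 4, 6 or 7 samples, 1 sample lay apart from the rest by Dixon's gap test. Chance gives about 1 in 20 for separate groups that are each drawn from 1 population. That rate does not hold for all groups here. The control and stretch groups pooled scan sessions, and the session 3 controls were also tested apart. All values are log2 signals relative to the array's 75th percentile. Stretch 7, the dimmest array, accounted for 4: Fyn at -5.92 (nearest other -3.20), Jak1 at -0.67 (0.48), Tec at -1.38 (-0.03) and Frk at -8.87 (-5.85). Stretch 6 was high for Src at -1.12 (-1.86). In the combined group, replicate 4 was low for Fgr at -4.03 (-3.36) and replicate 3 high for Abl2 at -5.04 (-5.47). BIRB796 replicate 4 was high for Ptk2b at -2.42 (-2.67), and control 3 for Tec at 0.90 (0.33). Among the session 3 controls, control 7 was low for Syk at -2.18 (-1.63).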

How the results depend on the processing

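The fit over all samples with the session term called 0 members. For stretch against control it called 1 (Lyn) without the session term and 2 (Abl2 and Lyn) with the array set in its place; the Zap70 difference then turned from 0.61 to -0.26 and -0.51. Array weights with a trend gave 12 members for BIRB796 against control, 1 for combined against BIRB796, 13 for combined against control and 1 for combined against stretch. Session 3 alone gave 2 and 6 for BIRB796 and combined against control; with marked spots kept 1 and 5, 1 and 5 from the authors' deposited values, with array median scaling 2 and 5, with normexp and quantile scaling 2 and 6, and with every probe apart 2 and 8. Over all genes, these variants in the same order called 171, 233, 279, 507 and 201 higher for BIRB796, and 247, 227, 173, 591 and 277 lower. For combined against control they called 769, 730, 1360, 1301 and 897 higher, and 1002, 1042, 810, 1445 and 1113 lower. Each tested 23476 genes, except 26879 probes with every probe apart. With the slide as a random block, session 3 alone gave 4 for combined against control (7.13% of genes). All the session 3 variants except session 3 alone were chosen after seeing the data. Leaving out 1 sample gave 0 to 0 members in the fit over all samples, except 0 to 1 for combined against control (Txk without control 7, stretch 6 or stretch 7). In session 3 alone it gave 0 to 9 for BIRB796 and 0 to 10 for combined against control. The highest counts came without control 7, when 9.74% and 16.2% of all genes were called. With the replicate number as a block beside session, 0 members were called in all 6 comparisons. The cause of these shifts was not tested. Dim signal limits Blk (6 of 22 arrays well above background), Lyn and Tnk1 (19 each) and Lck, Zap70 and Frk (21 each); Txk had no value on 1 array.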
